A study of Mus musculus with 10 samples.

Results

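A set of 9 genes of the skeletal muscle thin filament was followed in soleus and tibialis anterior (TA) muscle of wild type mice: the tropomyosins Tpm1, Tpm2 and Tpm3, the sarcomeric actins Acta1 and Actc1, the tropomodulins Tmod1 and Tmod4, and the leiomodins Lmod2 and Lmod3. They were taken by name, and their levels are sums of the deposited read counts over the annotated transcripts of each gene. They are 9 of the 20009 genes that had a count in at least 1 library. The 9 genes have 60 annotated transcripts, of which 38 had a count. RNA was measured in 10 libraries, 5 of soleus, a slow-twitch muscle, and 5 of TA, a fast-twitch muscle. Each muscle had 3 male and 2 female libraries, all of the wild type genotype, and no treatment is named. Age and strain are not given in the sources used here. The sample titles give a sex and a replicate number and do not say whether a number is 1 animal. The deposited names carry 5 codes, each shared by the soleus and the TA library of 1 number, and what a code stands for is not stated, so the p-values measure the spread between these libraries, which may be in part technical.

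The thin filament is a polymer of actin with tropomyosin wound along it, and with troponin it lets calcium switch contraction on and off. Tropomyosin blocks or frees the sites on actin where myosin binds, tropomodulin caps the pointed end of the filament at the middle of the sarcomere, and leiomodin nucleates actin filaments and lets their pointed ends grow. Adult limb muscle fibers use Acta1 as their main actin, while Actc1, the actin of the heart, is made by skeletal muscle mostly during development and regeneration. Among the tropomyosins, Tpm3 gives the slow fiber isoform, Tpm1 the fast fiber isoform and Tpm2 the beta isoform found in both.

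Library totals ran from 726414 to 961844 counts, and 5115 genes passed the filter on low counts. Fiber type markers followed the tissue labels. All 7 slow fiber markers tested, such as the slow myosin heavy chain Myh7, passed as higher in soleus, and they summed to 5282 to 7170 CPM (counts scaled to the same library size) in soleus and 1.01 to 13.9 CPM in TA. Of the 8 fast fiber markers, 7 passed as higher in TA, with sums of 12000 to 17988 CPM in soleus and 63189 to 85958 CPM in TA. The second female soleus library stood apart in listing 22862 transcripts, against 14993 to 16575 in the other libraries. A predicted gene, Gm20594, took 22.1% to 28.4% of counts in soleus and 17.2% to 20.9% in TA.

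The member transcripts differed in how much of their sequence is found in no other transcript, so that sequence is described first. Every 31-base word of the 60 member transcripts was looked up in all transcripts of the GENCODE M21 annotation of GRCm38. Words found in no other transcript are called own words here. Of the 18 transcripts with no own word, 17 had 0 counts and the other had 1 count. Of the 42 transcripts with own words, 37 had a count. How reads that match several transcripts were handled is not given in the sources used here, and its part in these counts was not tested. Where in a transcript the reads lie is not given either. Levels of different genes are for this reason not on a common scale, and each gene is compared only with itself between the muscles.

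**Figure D1:**
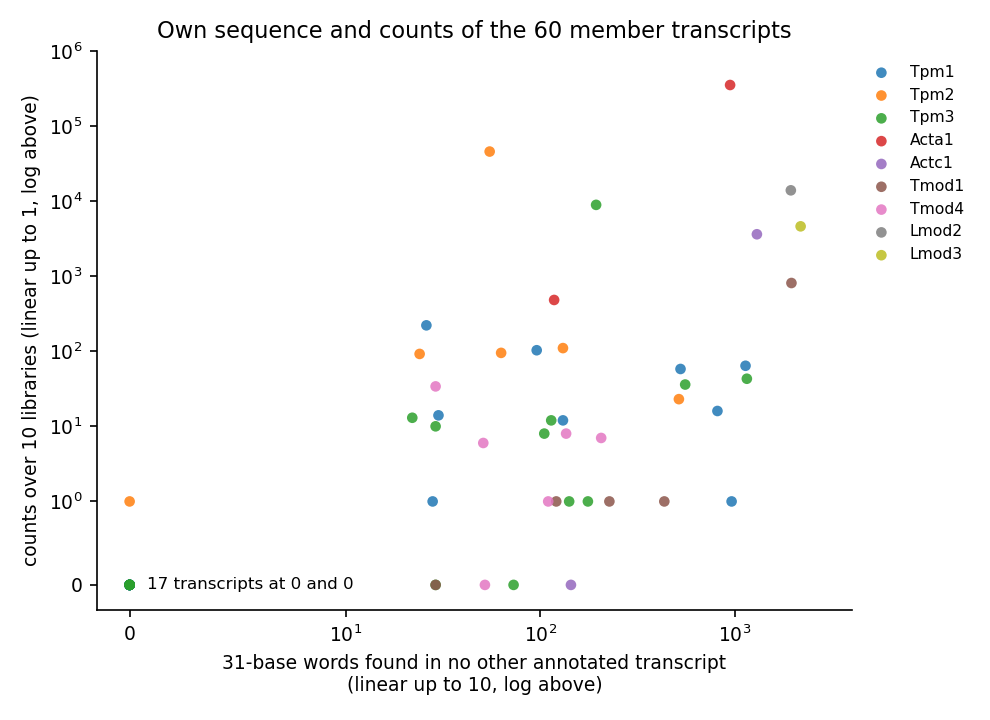
Counts over the 10 libraries (vertical axis, log above 1) against the number of own 31-base words (horizontal axis, log above 10) for the 60 annotated transcripts of the 9 genes, 1 point per transcript, coloured by gene. The 17 transcripts with neither own words nor counts share the point at the lower left.

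Tpm2 shows how narrow the own sequence of a highly counted transcript can be. Its transcript Tpm2-202 held 45500 of the 45821 counts of the gene, and all 55 of its own words lie in the coding sequence around its exon 6. Exon 6 of Tpm2-202 is chr4:43518644-43518719 on the minus strand (GRCm38), and Tpm2-201 and Tpm2-203 carry in its place the upstream exon chr4:43519003-43519078. In the rat gene the upstream exon of this pair is the one used in smooth muscle and fibroblasts, and the downstream exon the one used in skeletal muscle. Both exons have 76 bases and differ at 35 of them, an identity of 53.9%. The 2 exons are printed from the GENCODE transcripts, with the differing bases in capitals.
Tpm2-202 exon 6: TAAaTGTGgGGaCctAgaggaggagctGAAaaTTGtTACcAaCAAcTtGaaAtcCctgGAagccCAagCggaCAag
Tpm2-201 exon 6: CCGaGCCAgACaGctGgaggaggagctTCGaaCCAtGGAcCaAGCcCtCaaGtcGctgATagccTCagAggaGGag

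Tpm1 differs in which transcripts drew its counts. It has 21 annotated transcripts, 16 of them protein-coding, and 12 of those 16 have no own word and 0 counts. Of its 490 counts, 460 (93.9%) fell on transcripts of other types and 30 on protein-coding ones. The transcript with the most counts, Tpm1-218, is annotated as a target of nonsense-mediated decay, the pathway that removes messages with an early stop codon. It joins exon 3 (chr9:67035995-67036128) to an exon at chr9:67032794-67032864 and so lacks the 118-base exon chr9:67033876-67033993 of the protein-coding Tpm1-205. A length of 118 bases leaves a remainder of 1 when divided by 3. All 26 own words of Tpm1-218 span this junction, and the stretch they cover is printed with the bases on each side of the junction in capitals.
Tpm1-218 junction: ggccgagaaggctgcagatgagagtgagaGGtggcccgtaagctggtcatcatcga

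For Tpm3 the own words of the main transcript lie mostly near the 3' end of that transcript. Tpm3-205, with 8878 of the 9002 counts, has 194 own words, 181 of them in its 3' untranslated region and 11 in its coding sequence. Where its reads lie is not known, and its start is known here only from the annotation. The last 83 coding bases of Tpm3-205, from chr3:90091013 to chr3:90091934 without the intron, are shown with the stretch covered by own words in capitals.
Tpm3-205 coding end: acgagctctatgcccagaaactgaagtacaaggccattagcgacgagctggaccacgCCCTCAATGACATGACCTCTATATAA
RefSeq gives Tpm3 a pair of promoters (300 bases each, 250 before and 50 after the start, build GRCm38.p6). Tpm3-205 and Tpm3-204 start within 300 bases of the first start, whose window is chr3:90072401-90072700, and had 8869 counts in soleus and 9 in TA. The 5 transcripts that start within 300 bases of the second start, with the window chr3:90079271-90079570, had 73 counts in soleus and 5 in TA. Both windows are on the plus strand.
Tpm3 promoter 1: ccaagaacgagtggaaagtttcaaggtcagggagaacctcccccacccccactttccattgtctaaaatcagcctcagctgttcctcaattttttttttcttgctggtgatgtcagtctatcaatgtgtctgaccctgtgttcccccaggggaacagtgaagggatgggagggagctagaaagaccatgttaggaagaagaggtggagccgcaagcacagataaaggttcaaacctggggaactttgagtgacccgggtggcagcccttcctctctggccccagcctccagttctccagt
Tpm3 promoter 2: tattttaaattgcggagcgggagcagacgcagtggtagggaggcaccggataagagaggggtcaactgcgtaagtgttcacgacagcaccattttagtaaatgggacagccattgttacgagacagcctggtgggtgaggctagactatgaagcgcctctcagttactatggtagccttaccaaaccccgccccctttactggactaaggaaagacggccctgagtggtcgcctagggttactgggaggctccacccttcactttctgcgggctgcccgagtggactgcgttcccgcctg

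**Figure D2:**
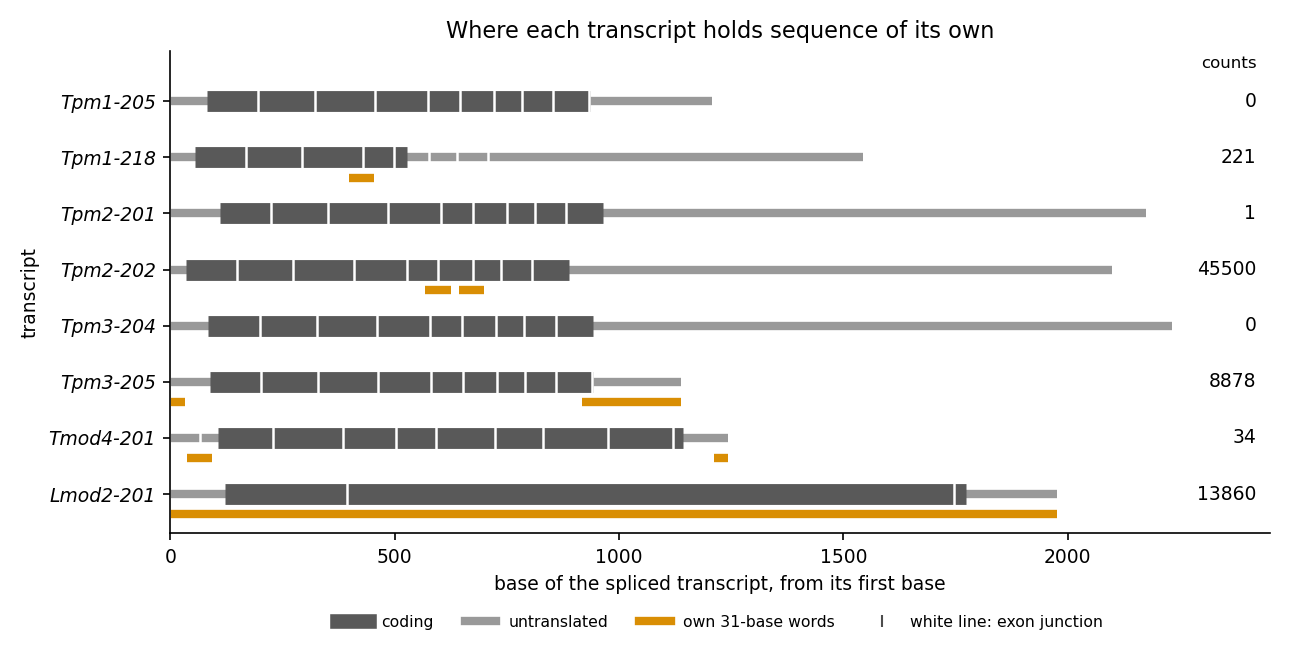
Spliced layout of 8 member transcripts drawn to scale in bases from the first base, with coding sequence thick, untranslated sequence thin, exon junctions as white lines and the stretches covered by own 31-base words as bars beneath. The counts over 10 libraries stand at the right: Tpm2-202 drew 45500 counts with own words around 1 exon only, while Tpm1-205 and Tpm3-204 have no own word and 0 counts.

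Between the muscles, 8 of the 9 genes could be tested. Tmod4 did not pass the filter on low counts, and Tpm3, with at most 8.14 CPM in TA, passed it through its soleus libraries. With edgeR's quasi-likelihood test and an adjusted p under 0.05, 3 genes were higher in soleus (Tpm3, Lmod2 and Lmod3) and 3 higher in TA (Tpm1, Actc1 and Tmod1), while Tpm2 and Acta1 did not pass. Over all tested genes, 11.0% were called higher in soleus and 11.0% higher in TA, 22.0% in all. The libraries of the 2 muscles did not overlap for 3 genes higher in soleus (Tpm2, Tpm3 and Lmod2) and for 2 higher in TA (Tpm1 and Tmod1), against 7.29% and 7.76% of all tested genes in those directions and 15.1% in either. The median log2 fold change of the 8 tested members was 0.28, and that of all tested genes 0.01. In whole muscle, fewer cells of a type and less RNA per cell cannot be told apart. Values below are in CPM of the scaled library size, and the 5 libraries of a muscle are listed as males 1 to 3 and then females 1 and 2.

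**Figure D3:**
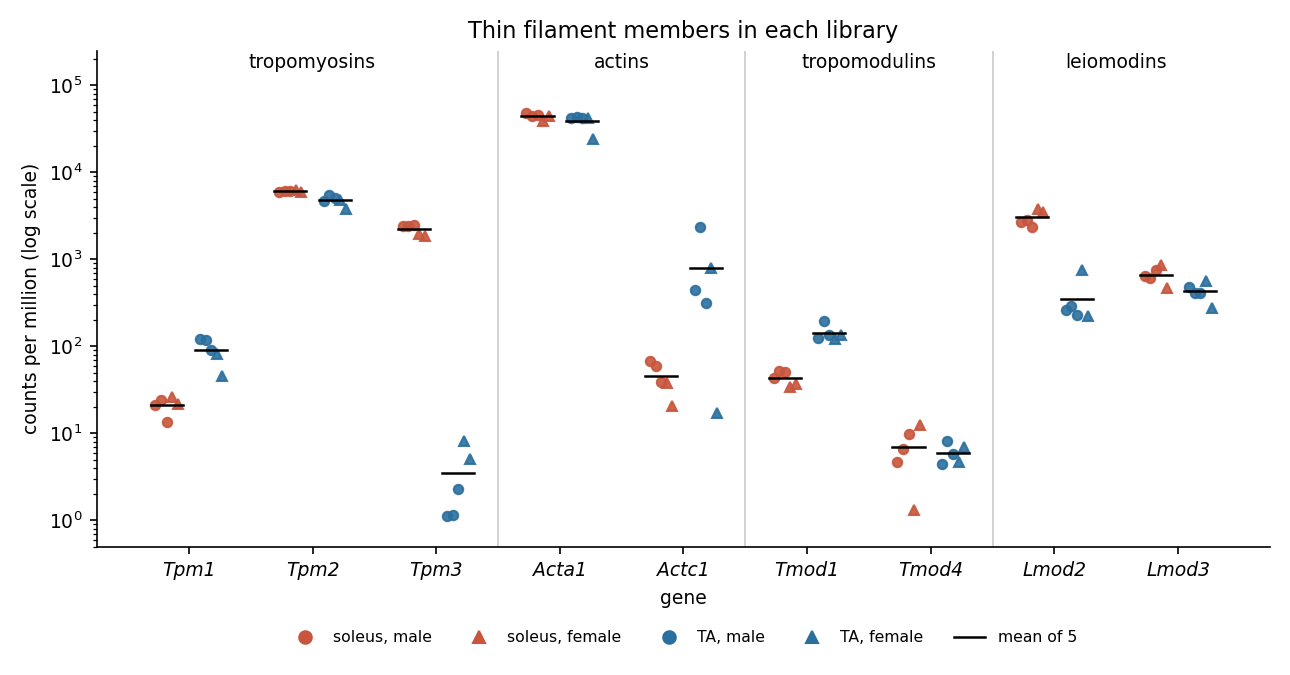
CPM (log scale) of the 9 genes in each of the 10 libraries, soleus left of TA for each gene, circles for males, triangles for females and a line at the mean of 5. Tpm3 lies between 1863 and 2490 CPM in soleus and between 1.13 and 8.14 CPM in TA, and the TA values of Actc1 spread from 17.1 to 2375 CPM.

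Tpm3, the slow tropomyosin, differed most among the members. Its levels were 2393, 2390, 2490, 1973 and 1863 CPM in the soleus libraries, against 1.13, 1.16, 2.31, 8.14 and 5.03 CPM in the TA libraries. Every soleus library lay far above every TA library, and the TA values rest on 1, 1, 2, 7 and 5 counts. The log2 fold change was 9.23 (SE 0.40, 95% interval 8.37 to 10.09, adjusted p = 6.74e-09 by edgeR's quasi-likelihood test). A related gene, Tpm3-rs7, shares 1664 of its 31-base words with Tpm3 transcripts and took 116 counts in soleus and 62 in TA, more in TA than Tpm3 itself. Of the 1109 words of the main transcript Tpm3-205, 709 are found in no other gene. Tpm3-201, a transcript of the second promoter with 2230 bases, has 534 such words. Whether any Tpm3-rs7 count stems from Tpm3-205 was not tested. Summed over both genes, soleus libraries averaged 2250 ± 282 CPM and TA libraries 17.2 ± 6.83 CPM (SD over the 5 of each muscle), a ratio of 131, beside 625 for Tpm3 alone.

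Tpm1, the fast tropomyosin, was lower in soleus on the counts it received. It had 21.1, 24.1, 13.5, 26.4 and 21.7 CPM in soleus, against 121, 119, 90.2, 81.4 and 46.3 CPM in TA. The groups did not overlap, and the second female library was the lowest in TA. The log2 fold change was -2.06 (SE 0.26, 95% interval -2.63 to -1.48, adjusted p = 1.26e-04 by edgeR's quasi-likelihood test), on 86 counts in soleus and 404 in TA. Since 12 of the 16 protein-coding transcripts drew no count, the value describes mainly other transcript types of the gene.

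Tpm2, the beta tropomyosin, was close in the 2 muscles. Its levels were 6024, 6142, 6100, 6352 and 5900 CPM in soleus and 4647, 5563, 5048, 4782 and 3753 CPM in TA. All 5 soleus libraries lay above all 5 TA libraries, yet the fit across all genes gave a log2 fold change of 0.36 (SE 0.13, 95% interval 0.09 to 0.64, adjusted p = 0.0612 by edgeR's quasi-likelihood test), which did not pass. The call turned to higher in soleus with DESeq2's Wald test (adjusted p = 0.0128) and when only protein-coding transcripts were summed (adjusted p = 0.0488).

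By single transcript, 18 tropomyosin transcripts had at least 10 counts and 9 of them were tested. Of the 9, 3 were higher in soleus (Tpm3-205, Tpm3-211 and Tpm2-204) and 3 higher in TA (Tpm1-218, Tpm1-219 and Tpm1-221), against 12.6% and 11.7% of the 5089 transcripts tested, or 24.2% in either direction. The libraries of the muscles did not overlap for 6 of the 9, against 16.6% of all: Tpm2-202, Tpm2-204, Tpm3-205 and Tpm3-211 were higher in soleus, beside 8.25% of all, and Tpm1-218 and Tpm1-221 higher in TA, beside 8.31%. The filter on low counts can be met in 1 muscle alone. Tpm3-205, Tpm3-211 and Tpm2-204 had at most 4.60, 1.13 and 6.93 CPM in TA. Tpm1-219 and Tpm1-221 had at most 5.85 and 4.74 CPM in soleus. These transcripts entered the test through the muscle where they were high, so their place in the counts above is a description only. The transcripts of a gene mostly leaned the same way. The mean CPM was higher in TA for all 7 Tpm1 transcripts with at least 10 counts, and higher in soleus for all 6 of Tpm3 and for 4 of the 5 of Tpm2.

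Tpm3-205 had 2374, 2338, 2486, 1957 and 1874 CPM in soleus, against 0, 1.16, 2.29, 4.60 and 1.98 CPM in TA. Its log2 fold change was 10.00 (SE 0.45, adjusted p = 4.52e-09 by edgeR's quasi-likelihood test), on 8869 counts in soleus and 9 in TA. Tpm3-211, annotated as a retained intron, had 35 counts in soleus and 1 in TA, a ratio of 39.2 (95% counting interval 6.59 to 1592, adjusted p = 9.51e-04 by the same fit). The Tpm3 transcripts of the second promoter were too sparse to test. Tpm3-201 had 12 counts in soleus, 9 of them in the second female library, and 0 in TA. Tpm3-203 had 10 counts in soleus and 0 in TA. Tpm3-202 had 12 counts in soleus and 1 in TA, and Tpm3-207, a retained intron, had 39 in soleus, 16 of them in the second female library, and 4 in TA.

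Tpm1-218, the junction transcript printed above, had 7.01, 11.9, 6.18, 14.5 and 5.92 CPM in soleus, against 53.3, 61.2, 33.1, 36.8 and 23.8 CPM in TA. The groups did not overlap, and the log2 fold change was -2.16 (SE 0.34, adjusted p = 5.21e-04 by edgeR's quasi-likelihood test). Tpm1-219 and Tpm1-221, both annotated as processed transcripts, had log2 fold changes of -2.94 (10 counts in soleus, 93 in TA) and -1.92 (12 in soleus, 52 in TA). Tpm1-221 holds 1138 own words and Tpm1-219 holds 96, in stretches other than the junction of Tpm1-218. Where their reads lie is not known. The share of Tpm1-218 in the counts of Tpm1 was 41.9% in soleus (exact 95% interval 31.3% to 53.0%) and 45.8% in TA (40.9% to 50.8%), intervals that overlap and cover counting error only.

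Tpm2-202, with the exon 6 printed above, had 24501 counts in soleus and 20999 in TA, a log2 fold change of 0.38 (SE 0.13, adjusted p = 0.0514 by edgeR's quasi-likelihood test) that did not pass. It passed under 4 of 18 alternatives, and in 1 of 10 fits that left out 1 library (lowest adjusted p = 0.0473 by the same test). Its share of the Tpm2 counts averaged 99.2% ± 0.540 in soleus, against 99.4% ± 0.287 in TA (± SD, with 5 libraries of each), a difference of -0.10 percentage points (two-sided exact permutation p = 0.786, also after adjustment, as 1 share met the conditions for a test). Tpm2-201, which carries the other exon 6, has no own word and drew 1 count, so this share cannot show which exon 6 was used. Tpm2-203, which carries the other exon 6 but has its own words in the 5' untranslated region, had 9.35, 15.9, 11.1, 7.92 and 41.5 CPM in soleus, against 10.2, 2.31, 3.43, 13.8 and 13.9 CPM in TA. Those groups overlapped and the transcript did not pass (log2 fold change 1.00, adjusted p = 0.147), though it did without the first female soleus library (adjusted p = 0.0198). Without the second female soleus library its log2 fold change was 0.51 (adjusted p = 0.489), and over all fits that left out 1 library the adjusted p ran from 0.0198 to 0.489. Tpm2-204, a processed transcript, had 12.9, 9.28, 13.6, 11.9 and 33.2 CPM in soleus, against 4.54, 6.93, 5.71, 6.90 and 4.95 CPM in TA (log2 fold change 1.43, SE 0.39, adjusted p = 0.0147). Its call was lost without the second female TA library (adjusted p = 0.0538) and without both libraries of the second female (0.078). Tpm2-206 did not pass (log2 fold change -0.41, adjusted p = 0.619).

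**Figure D4:**
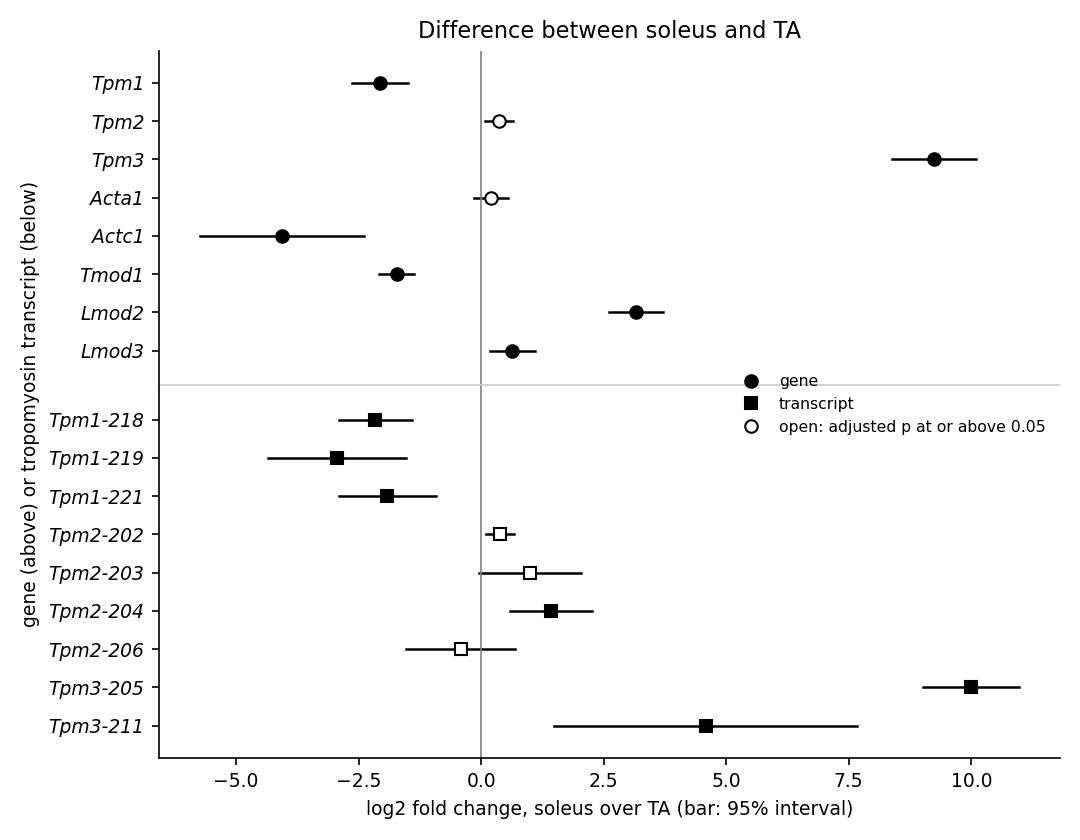
Log2 fold change of soleus over TA with its 95% interval for the 8 tested genes (circles, above) and the 9 tested tropomyosin transcripts (squares, below). Open symbols did not reach an adjusted p under 0.05. Tpm3 and Tpm3-205 lie at 9.23 and 10.00, while Tpm2, Acta1 and Tpm2-202 lie between 0.20 and 0.38.

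The 2 sarcomeric actins differed in how they varied. Acta1, the main actin of adult fibers, had 48473, 43911, 45698, 38624 and 44188 CPM in soleus, against 42033, 42771, 42033, 42441 and 24059 CPM in TA. The groups overlapped, and 4 of the 5 TA libraries lay between 42033 and 42771 CPM while the second female TA library was far below them. The fit gave a log2 fold change of 0.20 (SE 0.16, 95% interval -0.14 to 0.54, adjusted p = 0.418 by edgeR's quasi-likelihood test), which did not pass.

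Actc1, the cardiac actin, had 67.8, 60.2, 39.3, 38.2 and 20.6 CPM in soleus, against 443, 2375, 317, 802 and 17.1 CPM in TA. Of the TA libraries, 4 were above every soleus library, and the second female TA library was below all of them. Within TA the highest library was 139-fold above the lowest. Its log2 fold change was -4.07 (SE 0.77, 95% interval -5.74 to -2.39, adjusted p = 0.00393 by edgeR's quasi-likelihood test), and it passed in each fit that left out 1 library, with adjusted p from 1.64e-04 to 0.0282. It was -3.21 without the second male TA library and -3.32 without the first female one. Actc1-201 shares no 31-base word with Acta1-201, and per 1000 Acta1 counts there were 1.40, 1.37, 0.861, 0.990 and 0.465 Actc1 counts in soleus, against 10.5, 55.5, 7.53, 18.9 and 0.711 in TA.

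Markers of the heart, the other tissue that makes Actc1, were near 0 in every library: none of the 5 was tested, Myl7 and Tnni3 had no count, and the 5 summed to at most 16.0 CPM in soleus and 4.63 CPM in TA. Of the satellite cell markers, which mark muscle stem cells, 1 of 2 tested (Sdc4) was higher in soleus, beside 11.0% of all tested genes. The other, Cdh15, did not pass (log2 fold change 0.06, adjusted p = 0.906 by edgeR's quasi-likelihood test), and the rest had too few counts to test. Sdc4 averaged 92.1 CPM in soleus and 40.1 CPM in TA, the largest part of the sum in each muscle. The 4 markers summed to 78.4 to 217 CPM in soleus and 49.6 to 120 CPM in TA. In the TA library with the most Actc1, the second male, they summed to 60.2 CPM, and in the one with the least, the second female, to 119.7 CPM. The part of satellite or regenerating cells in the Actc1 counts was not tested.

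The RefSeq promoters of both actins hold a CArG box, the site of serum response factor. The CArG box was the only member motif found, with a MEF2 box in none of the 9 promoters, which cover 8 of the 9 genes. Both motifs were searched on both strands. Among 32851 promoter windows, 535 (1.63%) hold a CArG box and 3.19% a MEF2 box. The box starts 73 bases before the start of Acta1 (chr8:123894726-123895025, minus strand) and 47 before that of Actc1 (chr2:114052826-114053125, minus strand), and it is in capitals.
Acta1 promoter: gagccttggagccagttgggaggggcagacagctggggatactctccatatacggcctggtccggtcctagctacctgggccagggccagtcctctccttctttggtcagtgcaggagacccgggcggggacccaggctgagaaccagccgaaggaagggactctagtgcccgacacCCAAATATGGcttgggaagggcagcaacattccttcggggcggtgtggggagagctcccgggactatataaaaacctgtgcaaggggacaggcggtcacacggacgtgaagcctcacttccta
Actc1 promoter: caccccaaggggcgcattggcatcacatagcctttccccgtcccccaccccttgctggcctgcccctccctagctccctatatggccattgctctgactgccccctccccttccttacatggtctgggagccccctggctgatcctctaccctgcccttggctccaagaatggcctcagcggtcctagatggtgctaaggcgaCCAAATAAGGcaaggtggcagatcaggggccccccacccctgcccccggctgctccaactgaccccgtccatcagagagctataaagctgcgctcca
A match is a string of letters and says nothing of binding here. Of the 7 tested regulators around serum response factor, 2 passed as higher in soleus and none as higher in TA. The share of all tested genes was 11.0% in each direction. The 2 were the LIM-domain proteins Fhl2 (log2 fold change 4.37, adjusted p = 8.74e-06) and Fhl1 (1.65, adjusted p = 0.00787). Srf itself did not pass (0.13, adjusted p = 0.599), nor did Abra, an actin-binding activator of this pathway (0.46, adjusted p = 0.226), all by edgeR's quasi-likelihood test. The list summed to 2845 CPM in the second female soleus library and 1151 to 1216 CPM in the other soleus libraries, and to 2107 CPM in the first female TA library and 739 to 1331 CPM in the other TA libraries. Abra averaged 1131 CPM in soleus and 869 CPM in TA, most of the sum of the list. Without the second female soleus library, and without both libraries of the second female, 2 again passed as higher in soleus and 0 as higher in TA.

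Tmod1, a cap of the pointed end that red blood cells, heart and muscle make, was lower in soleus. It had 43.3, 52.2, 50.4, 34.3 and 36.5 CPM in soleus, against 124, 196, 135, 122 and 137 CPM in TA. The groups did not overlap, and the second male TA library was the highest. The log2 fold change was -1.73 (SE 0.16, 95% interval -2.08 to -1.37, adjusted p = 1.08e-05 by edgeR's quasi-likelihood test). None of 5 red blood cell markers passed, and they summed to 260 to 36755 CPM in soleus and 1562 to 21705 CPM in TA. Their part in the Tmod1 level was not tested. Tmod1 overlaps Tstd2 on the opposite strand over 1287 bases, and Tstd2 had 12 counts in all. Tmod1-201, with 809 of the 812 counts of Tmod1, has 1960 own words. The gene also shares 31-base words with many other genes, among them Cep295, with 23 shared words and 426802 counts. The part of such shared words in the Tmod1 level was not tested.

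Tmod4, the tropomodulin of skeletal muscle fibers, drew only 29 counts in soleus and 27 in TA. Its levels were 4.68, 6.69, 9.83, 1.32 and 12.6 CPM in soleus, against 4.51, 8.11, 5.78, 4.65 and 7.04 CPM in TA, and the groups overlapped. Its 3 protein-coding transcripts have no own word in coding sequence, and 14.3% of its counts fell on other transcript types. A difference between the muscles was not detectable at this depth.

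Lmod2, a leiomodin best known from the heart, was higher in soleus. Its levels were 2694, 2841, 2366, 3823 and 3489 CPM in soleus, against 264, 295, 231, 747 and 222 CPM in TA. The groups did not overlap, and the first female TA library was the highest of the TA libraries. In the fit, soleus over TA had a log2 fold change of 3.16 (SE 0.25, 95% interval 2.61 to 3.71, adjusted p = 5.39e-06 by edgeR's quasi-likelihood test). Lmod2 has 1 annotated transcript and all of its 1946 words of 31 bases are its own.

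Lmod3, the leiomodin whose loss causes nemaline myopathy in humans, had 639, 612, 756, 867 and 474 CPM in soleus, against 486, 415, 407, 569 and 277 CPM in TA. The groups overlapped, while in each of the 5 pairs of libraries that share a sex and a number the soleus library was the higher. The log2 fold change was 0.64 (SE 0.21, 95% interval 0.18 to 1.09, adjusted p = 0.0469 by edgeR's quasi-likelihood test). The call is near the threshold: leaving out 1 library lost it in 8 of 10 fits (adjusted p from 0.0119 to 0.137), all but those without the second female soleus library or the first female TA library, and upper-quartile scaling lost it too (0.0595). With the replicate block the adjusted p was 0.00343, and without both libraries of the second female it was 0.00618.

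Ratios within a library are free of library scaling, and 4 pairs were compared by a two-sided exact permutation test of 5 against 5 libraries, adjusted over the 4. The smallest exact p that 5 against 5 allows in this test is 0.00794, and any pair without overlap between the muscles reaches it. The ratios use the same counts as the gene tests above and are not separate evidence. On the log2 scale, Tpm2 over Tpm1 stood at 8.15 ± 0.35 in soleus and 5.76 ± 0.40 in TA (mean ± SD over 5 libraries), a difference of 2.39 (exact p = 0.00794, adjusted 0.0106). The log2 ratio of Lmod2 to Lmod3 was 2.19 ± 0.44 in soleus and -0.42 ± 0.51 in TA, a difference of 2.61 with the same exact p and adjusted p. For Tmod1 over Tmod4 it was 2.77 ± 0.98 in soleus and 4.45 ± 0.17 in TA, a difference of -1.69, again with the same exact p, on 1 to 11 Tmod4 counts per library. For Actc1 over Acta1 it was -10.02 ± 0.64 in soleus and -6.79 ± 2.31 in TA, a difference of -3.24 (exact p = 0.0397, adjusted 0.0397), and this pair alone overlapped between the muscles. The Actc1 to Acta1 difference was -4.14 without the second female TA library and -2.58 without the second male TA library. With the libraries paired by sex and number, each of the 4 differences had the same sign in 5 of 5 pairs, and the exact sign-flip p was 0.0625, the smallest that 5 pairs allow, so none passed in that test.

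**Figure D5:**
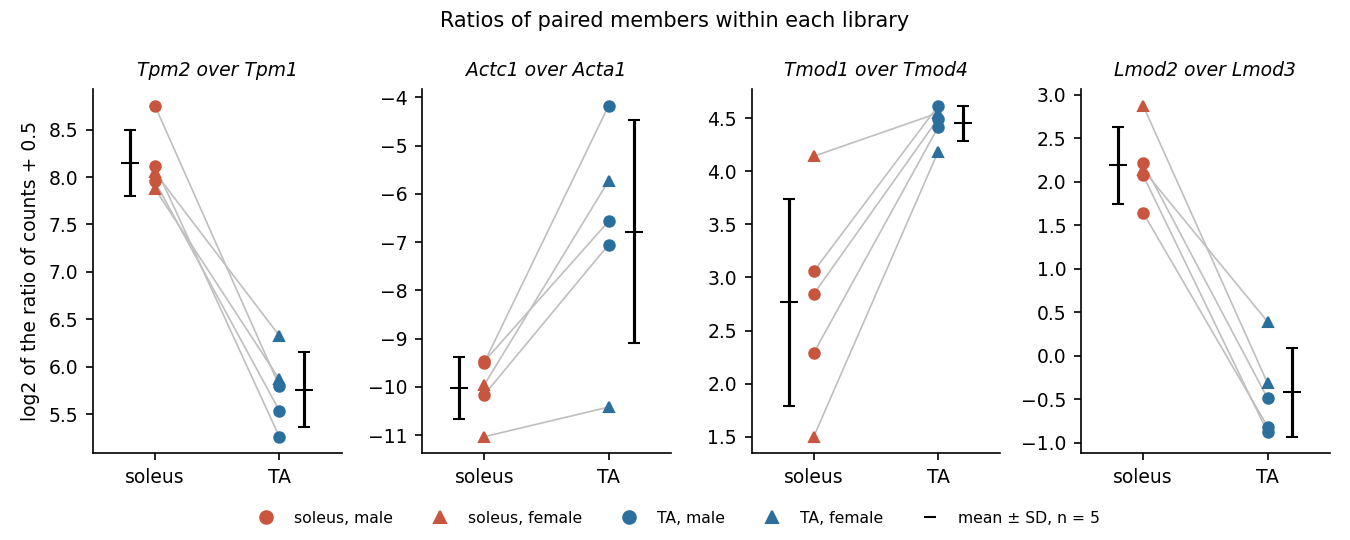
Log2 ratios of paired members within each library, soleus left and TA right, circles for males, triangles for females, grey lines joining libraries with the same sex and number, and black bars for mean ± SD (n = 5). The muscles overlap only for Actc1 over Acta1, where 1 TA library lies at -10.42.

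Sex was the other condition. No member passed in soleus, female over male (edgeR's quasi-likelihood test, 8 tested, 0 with an unadjusted p under 0.05, adjusted p from 0.397 to 0.998), where 0.547% of all genes passed and 16.5% had an unadjusted p under 0.05. In TA no member passed either (adjusted p from 0.194 to 0.972), against 0.645% of all genes, and 3 of 8 had an unadjusted p under 0.05, against 11.7% of all genes. Those were Tpm3, higher in females by a log2 fold change of 1.99 on 12 counts in 2 female and 4 in 3 male libraries, Lmod2, at 0.88, and Tpm1, at -0.79. The difference of the sex effects between the muscles gave 0 members and 0.00% of all genes, with an unadjusted p under 0.05 for 2 members and 6.86% of all genes. With 2 female libraries per muscle the intervals were wide, for example -3.69 to 0.98 for Actc1 in TA.

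Other genes of the thin filament were counted on lists. Of 14 tested genes for filament length, capping and turnover, 5 passed as higher in soleus and 3 as higher in TA, with a median log2 fold change of 0.39. Over all tested genes, 11.0% passed in each direction. The list summed to 13576 CPM in the second female soleus library and to 7637 to 8311 CPM in the other 4 soleus libraries, against 5965 to 7487 CPM in TA. Without that library the counts were again 5 and 3, and without both libraries of the second female they were 5 and 2, with Fhod3 lost (adjusted p = 0.0611). Higher in soleus were Klhl41 (log2 fold change 1.03, adjusted p = 1.82e-04) and Klhl40 (0.96, adjusted p = 0.0140), kelch proteins that stabilise thin filament proteins, Klhl40 protecting Lmod3. So were Xirp1 (1.57), an actin-binding protein, Cfl2 (0.82), the muscle cofilin that severs actin, and Wdr1 (0.70), its partner. Higher in TA were Capza2 (-0.69), a subunit of the cap at the barbed end, Kbtbd13 (-0.88), a kelch protein of nemaline myopathy, and the formin Fhod3 (-1.55, on 17 counts in soleus and 55 in TA). Nebulin, Neb, a ruler along the thin filament, did not pass (-0.11, adjusted p = 0.575).

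Of 6 tested troponin genes, whose products sit on tropomyosin, 3 passed as higher in soleus and 2 as higher in TA. Among all tested genes the share was 11.0% in each direction. Slow troponin C, Tnnc1, had 8738 counts in soleus and 4 in TA (log2 fold change 11.00), slow troponin I, Tnni1, had 1054 and 0, and slow troponin T, Tnnt1, had 322 and 1. Their fast counterparts Tnnc2 (-1.89) and Tnni2 (-1.92) were lower in soleus, and fast troponin T, Tnnt3, did not pass (-0.25, adjusted p = 0.342). Among 5 tested relatives of the members in other cells, Lmod1, the leiomodin of smooth muscle, was higher in TA with 22 counts in soleus and 370 in TA (log2 fold change -3.87, adjusted p = 8.24e-05). The other 4 did not pass, among them Tpm4 (-0.23) and Actb (-0.31).

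Markers of other cell types were counted in the same way, beside 11.0% of all tested genes called in each direction. Of 5 tested smooth muscle and pericyte markers, Rgs5 (-0.74) and Notch3 (-1.12) were higher in TA. The other 3, the smooth muscle genes Acta2 (-0.13), Tagln (-0.15) and Smtn (0.18), did not pass (adjusted p from 0.611 to 0.811). Rgs5 averaged 435 CPM in soleus and 737 CPM in TA, most of the sum of the list. The 8 on the list summed to 444 to 704 CPM in soleus and 632 to 1222 CPM in TA. All 3 tested endothelial markers were higher in TA, and the 5 on the list summed to 250 to 306 CPM in soleus and 339 to 876 CPM in TA. None of 5 fibroblast markers passed, with sums of 160 to 11379 CPM in soleus and 403 to 5404 CPM in TA, though 1 passed as higher in TA without both libraries of the second female. The 1 tested Schwann cell marker did not pass, with sums of 9.23 to 36.1 CPM in soleus and 10.1 to 22.1 CPM in TA. Their part in the higher TA levels of Tpm1, Tmod1, Actc1 and Lmod1 was not tested.

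The genes whose level moved most like each member's, by Pearson's r of log2 CPM over the 10 libraries, were named as a description. The 10 points share 2 muscles, so r is high for any gene with a large difference between them. Tpm3 was closest to the slow fiber genes Tnnc1 (r = 0.997), Atp2a2 (0.997) and Tnni1 (0.994). Tpm1 was closest to Ube2c (0.990), Mylpf (0.977) and Pgk1 (0.977), of which Mylpf is the fast regulatory myosin light chain. Tmod1 was closest to Copb1 (0.975), Fam213b (0.974) and Myh4 (0.972), the fast myosin heavy chain of type IIB fibers, and Lmod2 to Tcap (0.981), Aox1 (0.980) and Myoz2 (0.977). For the members that differed less or varied within TA, r was lower: Tpm2 was closest to Lrrn1 (0.956), Lrrc2 (0.944) and Ddt (0.935), Actc1 to Adamts12 (0.942), Esam (0.931) and Braf (0.920), Lmod3 to Impa2 (0.927), Nceh1 (0.918) and Akap6 (0.911), and Acta1 to Ndufb7 (0.922), Oxct1 (0.919) and Tomm20 (0.912).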

How the data were processed

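Total RNA of soleus and TA (10 ng per library) was prepared by Tag-Seq with a stranded SMART-Seq kit, per the labels. The submitters' processing notes name bcl2fastq, Trimmomatic 0.32, FastQC and the build GRCm38.p4. The aligner and the counter are not given in the sources used here. The deposited values are raw read counts per Ensembl transcript, 1 library per file, listing transcripts with at least 1 count. Of 40414 transcripts listed, 40359 matched GENCODE M21 (GRCm38) and were summed by gene.

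The main test was edgeR 4.0.16 (R 4.3.3): quasi-likelihood fit on all 10 libraries with sex as covariate, TMM scaling, filterByExpr by the 4 groups of muscle and sex, and Benjamini-Hochberg adjustment over all tested genes or transcripts at 0.05. On simulated counts this test recovered 35 of 100 genes and 43 of 100 transcripts changed 2-fold. At 4-fold it recovered 88 and 91 of 100, with 4 false calls among genes and 4 among transcripts. Most simulated 2-fold changes were thus missed. Sex was tested in a model with 4 group means. Ratios used counts plus 0.5, and intervals are at 95%. Shares were tested where each library had at least 20 counts on the gene and the transcript held at least 5% of them in at least 1 muscle. Alternatives were DESeq2 1.42.0, other scalings and filters, library sizes without Gm20594 and Cep295, protein-coding transcripts only, a replicate block, leaving out single libraries, and, chosen after seeing the data, leaving out both libraries of the second female and, for the lists, its soleus library alone.

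The members and lists were chosen with earlier results of these data known. Named were all 9 members, tropomyosin transcripts with at least 10 counts, up to 6 called and 2 uncalled genes per list, and the 3 genes most like each member. Wdr1, Kbtbd13 and Smtn lie outside this rule and were named after their values were seen. Deviations from the group mean had r = 0.23, 0.18 and 0.24 for soleus and TA libraries of the same male number, and 0.29 for the females. For unlike numbers r ran from -0.16 to -0.07 in males and was -0.29 in females. Deviations sum to 0 within a group, so these values are tied, and the 2 females give only 1 value. Libraries of the same sex and number also shared a code in the deposited names, so they were paired in the replicate block and the sign-flip test. The main tests were unpaired. Promoters are from RefSeq, GRCm38.p6. Counting intervals and floors cover counting error only.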

Additional observations from a re-analysis of the deposited data

Results flagged for a closer look

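In 7 of the 44 sets of 5 libraries examined, the highest or lowest library stood apart from the other 4 (its gap to the nearest, over the range, was above Dixon's critical value at 95%). For normally distributed values chance gives about 1 in 20 such sets. Genes, their transcripts and the ratios share counts and some sets hold very few, so 7 of 44 cannot be set against that rate. In TA, Acta1 was low in the second female library (24059 CPM), Tmod1 high in the second male library (196 CPM) and Lmod2 high in the first female library (747 CPM). The second female soleus library, which listed the most transcripts, was high in Tpm2-203 (41.5 CPM) and Tpm2-204 (33.2 CPM). Tpm3-211 was above 0 in 1 TA library, the first male (1.13 CPM, 1 count). The log2 ratio of Tpm2 to Tpm1 was high in the third male soleus library (8.75), on its 11 Tpm1 counts. The cause of these values was not tested.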

How the results depend on the processing

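The calls of Tpm1, Tpm3, Actc1, Tmod1 and Lmod2 held under each alternative that gave them a value, and Acta1 passed under none of 19. Lmod3 passed under 10 of 19 and Tpm2 under 2 of 19. The count of tropomyosin transcripts higher in soleus was 6 with no filter on low counts, and 2 to 5 when 1 library was left out, with 5 reached without the first female soleus library. In TA, 1 member passed for sex with no filter and 0 to 1 when 1 library was left out, the 1 without the second female TA library. The difference in the Tpm2-202 share turned to 0.050 percentage points with protein-coding transcripts only (exact permutation p = 0.754) and ran from -0.22 to 0.14 when 1 library was left out, positive without the second female soleus library. With the replicate block, the ratio differences stayed at 2.39 (Tpm2 over Tpm1), -3.24 (Actc1 over Acta1), -1.69 (Tmod1 over Tmod4) and 2.61 (Lmod2 over Lmod3) with an exact sign-flip p of 0.0625 each. The block changed no call of a gene or transcript. The cause of these shifts was not tested. Depth limits Tmod4, Tpm1 and the TA level of Tpm3, all on few counts, and 5 libraries per muscle limit the rest.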
